A study of Mus musculus with 16 samples.

Results

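N6-methyladenosine (m6A) peaks found in both liver libraries of betaine-fed mice, and in neither library of mice on the high-fat diet alone, are described here. A peak of HB replicate 1 was a member when it overlapped a peak of HB replicate 2 by at least 1 bp and overlapped no peak of HF replicate 1 or HF replicate 2. Of the 22086 peaks of HB replicate 1, 1420 were members, which is 6.43% of that list. The 4 peak lists held 94005 peaks in all, and the mirror set, in both HF libraries and neither HB library, held 1715. Livers came from male C57BL/6 mice aged 16 weeks that had received a high-fat diet (HF) or a high-fat diet plus Betaine (HB) for 8 weeks. Both groups therefore carried the high-fat diet, and no group on ordinary chow was used here. Each diet had 2 m6A libraries, 2 total mRNA libraries and 2 libraries of mRNA bound to ribosomes with nascent chains (RNC). Per the labels, mRNA and RNC samples were pools of material from independent experiments, so each p-value below measures only how these pools differed.

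m6A is the most frequent internal modification of mRNA. A methyltransferase complex with METTL3 and METTL14 writes it, mostly in the sequence context GGAC, FTO and ALKBH5 can remove it, and YTH-domain proteins such as YTHDF2 bind it and affect the decay and translation of the message. In mature transcripts m6A is known to be dense near the stop codon and in the last exon. Betaine is a methyl donor that remethylates homocysteine to methionine, the precursor of the S-adenosylmethionine used by methyltransferases.

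Membership was set by the peak calls themselves, so the absence of an HF peak is the rule and not a result. How often any pair of libraries shared peaks was measured for every pair. HB replicate 1 shared 20.2% of its peaks with HB replicate 2, 19.6% with HF replicate 1 and 19.7% with HF replicate 2. HB replicate 2 shared 17.0% of its peaks with HB replicate 1, 17.8% with HF replicate 1 and 16.9% with HF replicate 2. The HF libraries shared more with each other, at 23.2% of HF replicate 1 and 21.6% of HF replicate 2. The overlap of the HB pair was thus close to its overlap with either HF library. Of the 4451 HB replicate 1 peaks that recurred in HB replicate 2, 3031 also met an HF peak, and the other 1420 are the members. With 2 libraries a diet, no test of the diet difference in peak presence was made.

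**Figure D1:**
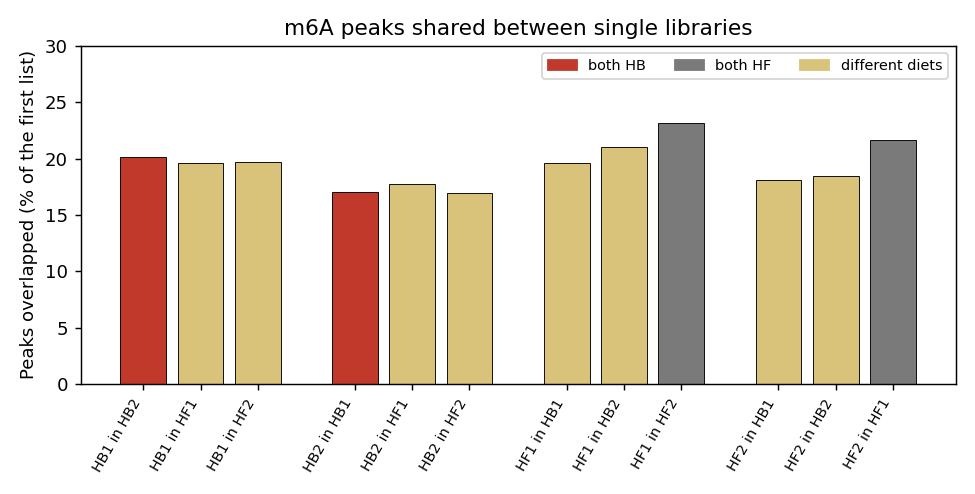
Share of each library's m6A peaks that overlapped a peak of another library by at least 1 bp, in percent of the first list named under each bar. HB replicate 1 met HB replicate 2 at 20.2%, beside 19.6% and 19.7% for the HF libraries, whereas the HF pair met at 23.2% and 21.6%.

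The genome sequence under most members was not used here, so sequence is shown only where a member overlapped a RefSeq promoter window (250 bases before to 50 bases after a transcript start, assembly GRCm38.p6, which is mm10). Of the 1420 members, 16 (1.13%) overlapped such a window, against 318 (1.44%) of all HB replicate 1 peaks, and 0 overlapped a RefSeq miRNA. These windows lie mostly upstream of the annotated start. A match to the m6A context GGAC in them describes the DNA letters, not a methylated site. The stretches of 30 bases below are all those whose GGAC lay inside a member peak, on the strand of the window's gene. Each shows the GGAC nearest the summit. They are printed 5′ to 3′ on that strand with GGAC in capitals, and distances run from the GGAC to the summit.
2310040G24Rik: ccagtggttagcagacaGGACttctgtctg
Fam207a: gaggcacttccggGGACcggccgaacgccg
Bcat2: tcagaatggttttGGACtcacagagatcct
Pms1: ctggctggtcacaGGACaattcccgcggca
Septin7: agagcgagagcagGGACcaaggtgagtcac
Dhcr7: cagagaccaaagaGGACttctgcccactgg
Gm39913: ccgcgGGACagcgaggggcgacggtgatgg

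The Dhcr7 stretch lies on chromosome 7 from 143823327 to 143823356 on the plus strand, 113 bases from the summit of its member peak. The Bcat2 stretch lies on chromosome 7 from 45569914 to 45569943 on the plus strand, 82 bases from the summit. Dhcr7 encodes the last enzyme of cholesterol synthesis, and Bcat2 the mitochondrial aminotransferase of branched-chain amino acids. The Fam207a stretch, on chromosome 10 from 77515844 to 77515873 on the minus strand, lay 34 bases from the summit. The Septin7 stretch, on chromosome 9 from 25251769 to 25251798 on the plus strand, lay 75 bases from the summit. The Pms1 stretch, on chromosome 1 from 53297146 to 53297175 on the minus strand, lay 94 bases from the summit. The stretch of 2310040G24Rik runs from 86488178 to 86488207 on the minus strand of chromosome 6. That of Gm39913 runs from 118862075 to 118862104 on the minus strand of chromosome 2. Its GGAC lay at position −245 from the Gm39913 start, upstream of it. The summit of that member lay in the span of 1 gene of the count tables, Ivd, on the plus strand. That GGAC is therefore on the strand opposite to Ivd.

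GGAC was present on the gene strand of the promoter window for 9 of the 16 member peaks with such a window (56.2%, exact 95% binomial interval 29.9 to 80.2%). The whole window was counted, including bases outside the peak. On the opposite strand GGAC was present for 13 of the 16. Of the 318 HB replicate 1 peaks over a promoter window, 68.9% held GGAC on the gene strand and 72.3% on the other. Among all 27025 RefSeq promoter windows, 1 per gene, 65.6% held GGAC on the gene strand and 66.2% on the other. The longer motif GGACT, which contains GGAC, was on the gene strand in 4 of the 16 (25%). It was there for 30.5% of the 318 HB replicate 1 peaks and 26.1% of all promoter windows. The interval of the members' share spans the share of all windows and that of the 318 HB replicate 1 peaks. A difference in GGAC was thus not detectable with 16 windows.

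The fold enrichment of a peak over local background is the authors' own value. In HB replicate 1 it ran from 6.00 to 80.5 over the members with a median of 11.7, beside a median of 10.8 over all HB replicate 1 peaks. The overlapping peaks of HB replicate 2 had folds of 6.00 to 46.5 with a median of 9.11. The deposited lists start at a fold of 6.00, and 167 members (11.8%) lay under 7 in HB replicate 1. The folds in the HB libraries were within a factor of 2 of each other for 1024 members (72.1%), and HB replicate 2 had the higher fold for 499. Summits in the HB libraries lay a median of 73.5 bases apart, and 544 members (38.3%) had summits at most 50 bases apart. Members had a median length of 224 bases and a median summit pileup of 39.7. HB replicate 1 peaks that met a peak in each of the other libraries (1884 peaks) had a median length of 447 bases and a median pileup of 153. Their median fold, 13.3, was nearer to that of the members. A member was thus shorter and lower than a peak of all 4 libraries, close to the typical HB replicate 1 peak with its 215 bases and pileup of 37.3.

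**Figure D2:**
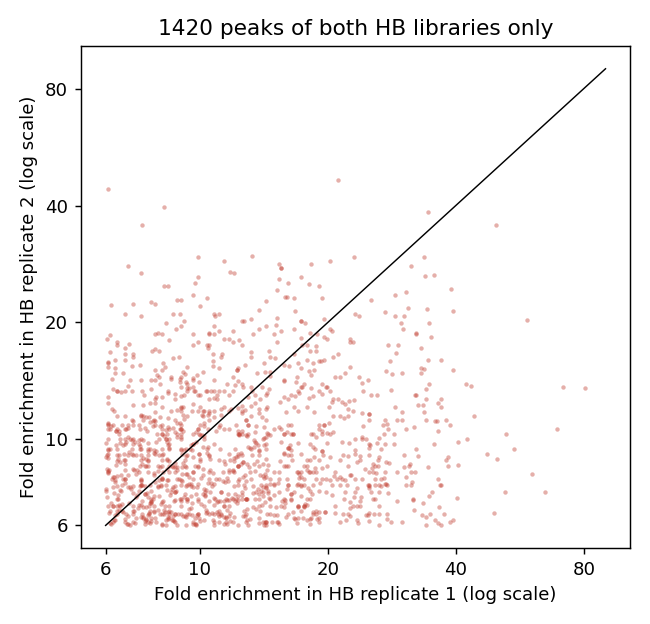
Fold enrichment of each of the 1420 member peaks in HB replicate 1 (x axis) and of the peak it overlapped in HB replicate 2 (y axis), both on log scales, with the line of equality. Points spread widely about the line, and 499 of the 1420 lie above it.

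The distance from a member to the nearest HF peak shows how near the members came to failing the rule. It had a median of 2.88 kb, and 425 members (29.9%) had an HF peak within 1000 bp, 139 (9.79%) within 200 bp and 42 (2.96%) within 50 bp. Just inside the rule, a member in Snx16, a sorting nexin gene, had folds of 29.8 and 19.9 in HB replicates 1 and 2 and an HF peak 1 base away. A member in Camsap1, which encodes a protein that binds microtubule minus ends, also had an HF peak 1 base away. Just outside it, a peak in Zfp62 with folds of 29.0 and 6.28 overlapped an HF peak by 1 base. A peak in Fancm, a DNA repair helicase gene, with folds of 8.62 and 27.3 overlapped one by 2 bases. In all, 49 HB replicate 1 peaks that recurred in HB replicate 2 were kept out by an HF overlap of at most 50 bases.

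The strongest member lay in Eea1, an early endosome tethering protein, at chr10:95985063-95985395 in mm10, 42.5% along the gene span. Its fold was 80.5 in HB replicate 1 and 13.6 in HB replicate 2. The next was in Inpp5d, the SHIP1 inositol phosphatase of blood cells, at chr1:87719746-87720288, 523 bases before the gene's end. Its folds were 71.4 and 13.7, and an HF peak lay 19 bases from it. A member in Sugct, a glutarate CoA-transferase gene, had folds of 69.4 and 10.6 and lay at chr13:17231143-17231490. In Mon2, whose product acts in endosome-to-Golgi traffic, a member at chr10:123068367-123069003 had folds of 60.5 and 8.13. In F8, the gene for coagulation factor VIII, a member at chrX:75350789-75351210 had folds of 58.8 and 20.3. All 5 had a far higher fold in HB replicate 1, the library the ranking used.

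Members in Dcaf6 (folds 55.0 and 9.42), Vps13b (52.5 and 10.3) and Cdyl2 (52.3 and 7.32) showed the same order. Dcaf6 encodes a substrate receptor of a ubiquitin ligase, Vps13b a lipid-transfer protein, and Cdyl2 a chromodomain protein. In Cpne8, a copine, a member 1434 bases before the gene's end had folds of 49.9 and 8.92. Tm4sf1, a tetraspanin-like membrane protein, held the member whose HB replicate 2 fold was highest among these 10, at 35.7 beside 49.7. Of the 10, the nearest HF peak was within 1000 bp for Eea1, Inpp5d, Sugct, F8, Dcaf6 and Vps13b.

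The summit lay in the mm10 span of exactly 1 gene of the count tables for 1229 members, in several for 50 and in none for 141 (9.93%). Summits in the spans of 2 genes included those of Bcat2 with 0610005C13Rik, Zbed6 with Zc3h11a and Spag1 with Polr2k. Those of Lrat with Rbm46os, Hnf4a with Hnf4aos and Rptor with Rptoros were shared too. Such a member cannot be assigned to either gene of its pair, and both were counted. The spans named 1124 genes in all. Of these, 970 held 1 member, 120 held 2 and 34 held 3 or more. Genes with members were long, with a median span of 56.7 kb, against 34.8 kb for genes with any HB replicate 1 peak, 42.4 kb for genes with peaks of both HF libraries only, 32.2 kb for genes with peaks of all 4 libraries and 15.1 kb for all genes placed. Gphn, the gene for gephyrin, which synthesises the molybdenum cofactor in liver, held the most members, 9. Its span of 467 kb held 33 and 39 peaks in HB replicates 1 and 2 and 31 and 33 in HF replicates 1 and 2. Dpyd, the gene for the enzyme that starts pyrimidine breakdown, held 7 members among 73 HB replicate 1 peaks over 871 kb, beside 52 and 81 HF peaks. Vwa8 (5 members, 353 kb), Zbtb20 (5 members, 759 kb) and Prr16 (5 members, 187 kb) followed. Zbtb20 encodes a liver repressor of alpha-fetoprotein and held 51, 37, 50 and 67 peaks in HB replicates 1 and 2 and HF replicates 1 and 2. Gphn, Dpyd and Zbtb20, rich in members, thus held more than 30 peaks in every library.

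Most member genes also carried HF peaks elsewhere in their span. Of the 1124 genes, 1036 (92.2%) held an HF peak at another place, beside 88.0% of all genes with an HB replicate 1 peak. The shares differ in kind, since the 88.0% also counts HF peaks that overlap the HB replicate 1 peak itself. Member genes were also longer, as given above. A peak of all 4 libraries was present in 239 member genes (21.3%). A peak of both HF libraries and no HB library was present in 225, which is 20.0% of member genes and 15.3% of the 1474 genes with such peaks. The remaining 88 member genes held no HF peak and had a short median span of 14.3 kb. They included Dok3, an adaptor of immune cell signalling, Zbed6, a repressor of Igf2, the zinc finger gene Zfp433, the transcript C330021F23Rik and Ivd, the isovaleryl-CoA dehydrogenase gene.

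Along the gene, from annotated start to end with introns included, members were spread more evenly than peaks of all 4 libraries. Of the 994 members with a strand and a single gene, 18.9% had the summit in the first 20% of the span and 30.2% in the last 20%. The last 20% held 32.2% of all HB replicate 1 peaks, 42.5% of the peaks of both HF libraries only and 60.9% of the peaks of all 4 libraries. The summit lay within 3 kb of the gene's end for 18.7% of members, beside 19.2%, 28.4% and 50.1% in the same order. It lay within 1 kb of the start for 3.82% of members. Members thus lay along genes much as HB replicate 1 peaks in general did. No test was made, since the peak sets were chosen by the same calls, and exons and introns were not told apart here.

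**Figure D3:**
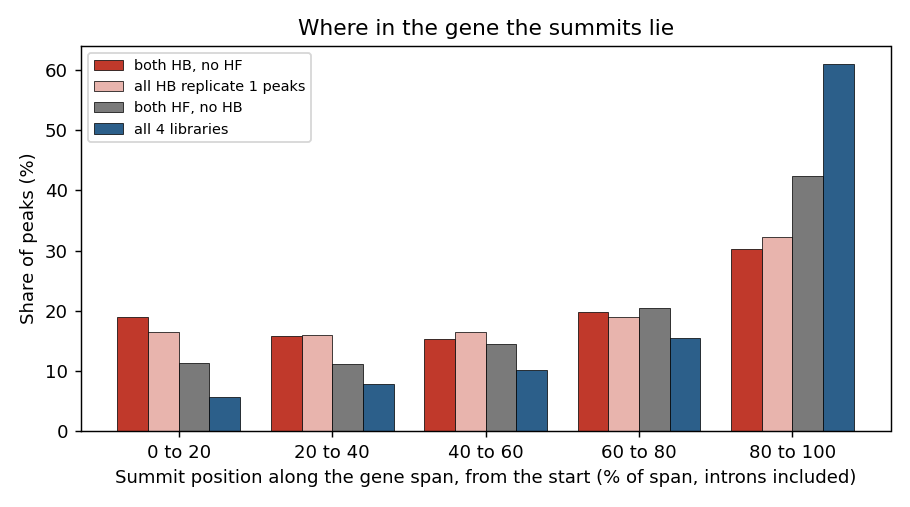
Share of peaks (y axis, percent) by summit position in 5 equal parts of the gene span from start to end (x axis), for member peaks, all HB replicate 1 peaks, peaks of both HF libraries only and peaks of all 4 libraries. The last part holds 30.2% of members and 60.9% of peaks found in all 4 libraries.

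Members within reach of a gene's end included Dok3 (199 bases before the end, folds 23.8 and 9.04) and C330021F23Rik (576 bases, folds 22.5 and 18.1). In Ccnl1, a cyclin that acts in splicing, the member lay 720 bases before the end with folds of 12.5 and 9.19. In Ythdf2, the reader that promotes decay of m6A-marked mRNA, it lay 1862 bases before the end with folds of 13 and 9.58. In Ppara, the receptor that drives hepatic fatty acid oxidation, the member lay 24.9% along the span, 54020 bases from the end, with folds of 11.99 and 8.33. In Nr1h4, the bile acid receptor FXR, it lay 53.5% along, with folds of 9.90 and 10.7.

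Members were placed on every chromosome, from 4.32% of the HB replicate 1 peaks of chromosome 14 to 8.95% of those of chromosome 19.

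Of all 24539 genes in the count tables, 4.58% (1124) held a member, and only 12150 held a peak of any library. A list rich in genes with peaks can thus exceed 4.58%, and no list was tested for an excess of members. Members were found in 1 of 24 cholesterol synthesis genes (Dhcr7), 2 of 29 fatty acid and triglyceride synthesis genes (Acacb, Elovl6), 1 of 31 fatty acid oxidation genes (Ppara) and 0 of 28 lipid droplet and lipoprotein genes. They were found in 2 of 33 betaine and one-carbon genes (Ahcyl2, Mthfd1l), 3 of 38 translation factors (Eif2s2, Eif4e, Rptor) and 1 of 20 measured m6A writers, erasers and readers (Ythdf2). Nuclear receptors had 5 of 27 (Nr1h4, Hnf4a, Ppara, Thrb, Esr1), insulin and glucose genes 4 of 29 (Foxo1, Pfkfb3, Pcx, Ghr) and inflammatory signalling 4 of 34 (Stat3, Ifnar1, Jak2, Tlr4). Bile acid genes had 1 of 18 (Klb) and stress-induced genes 0 of 29. A peak of any library was held by 22 of the 27 nuclear receptor genes and 22 of the 29 insulin and glucose genes. It was held by 27 of the 34 inflammatory signalling genes, 24 of the 29 stress-induced genes and 14 of the 24 cholesterol synthesis genes. Of the genes that defined other liver cell types, Vsig4 (Kupffer cells), Stab2 (endothelium) and Lrat (stellate cells) were among those with a member.

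Depth was 11437462 and 11570775 counted reads for HF mRNA, 22492813 and 18011999 for HB mRNA, and 5778439 to 8659310 for the RNC libraries. Summed levels of cell-type marker lists moved between mRNA libraries: the 7 red blood cell genes summed to 384 and 322 CPM (reads scaled to library size) in HF and 546 and 1621 in HB, with 3 of 5 tested genes higher in HB. Of the 8 Kupffer cell genes 3 were higher (summed 232.5 and 252.5 CPM in HF, 319 and 298 in HB), and of the 8 hepatocyte genes, abundant at a summed 72966 to 114069 CPM, 2 were higher and none lower. The 7 neutrophil genes summed to 4.1 and 24.5 CPM in HF and to 1.9 and 2.7 in HB, both of the 2 tested being lower, and 1 of the 7 was at 0 in every mRNA library. None of the tested endothelial (7), cholangiocyte (6) or lymphocyte (5) genes was called. A single gene was higher in each of the stellate cell (8 tested), adipocyte (2) and exocrine pancreas (1) lists. Over all 12817 genes tested, 11.3% were higher in HB and 10.1% lower, and lists this short were not compared with those shares. The part of these marker shifts in the results below was not tested. In bulk liver, fewer cells of a type and less RNA per cell cannot be told apart.

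At the mRNA level, genes with members were expressed but not high. Their median deposited RPKM (reads scaled to transcript length and library size) was 3.99 and 4.05 in the HF libraries and 3.30 and 2.64 in the HB libraries, and 14 of the 1124 had no mRNA read in any library. Of the 1079 that passed the filter on low counts, 80 (7.41%) were higher in HB and 135 (12.5%) lower at an adjusted p under 0.05 (edgeR quasi-likelihood test, Benjamini-Hochberg over all genes). Over all 12817 genes tested, 11.3% were higher and 10.1% lower, 21.4% together, and the members' genes had 19.9% together. The median log2 difference, HB minus HF, was −0.08 in member genes and 0.01 in all genes. Genes with peaks in all 4 libraries gave 7.12% higher and 12.95% lower, and genes with peaks of both HF libraries only 7.70% and 13.6%. A low share of higher calls and a raised share of lower calls was therefore seen beside each of these peak sets, whichever diet the peaks came from. The 88 member genes with no HF peak gave 10 higher and 6 lower of 77 tested, with a median log2 difference of 0.20.

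**Figure D4:**
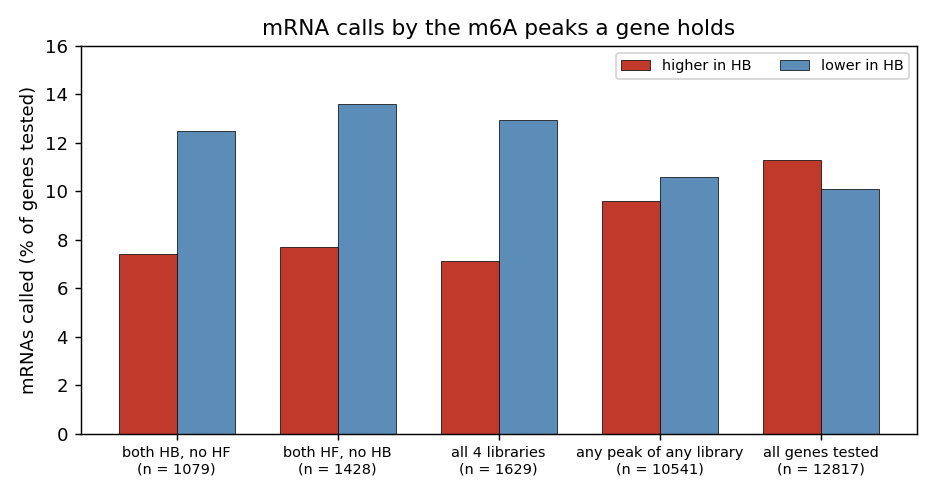
Share of tested genes called higher (red) or lower (blue) in HB mRNA, in percent, by the m6A peaks a gene holds, with the number tested under each pair of bars. Member genes (7.41% higher, 12.5% lower) lie close to genes with peaks of both HF libraries only (7.70%, 13.6%) and of all 4 libraries (7.12%, 12.95%), while all genes tested had 11.3% and 10.1%.

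These counts depended on single libraries and on the scaling. Without HB mRNA replicate 1 they were 16 higher and 42 lower, without HF mRNA replicate 1 they were 17 and 44, without HF mRNA replicate 2 they were 38 and 86, and without HB mRNA replicate 2 they were 122 and 137. Scaling by total counts in place of TMM (edgeR's default, a trimmed mean of log ratios) moved the median of all genes by −0.29 on the log2 scale and gave 35 higher and 235 lower member genes, beside 6.11% higher and 18.1% lower of all genes under the same scaling. Of the 215 calls, 28 (5 higher, 23 lower) held with any 1 mRNA library left out, which is 13%, as it is for all genes (356 of 2740). In a model of all mRNA and RNC libraries together, 0 of 1067 member genes and 0 of 12634 genes in all (0%) passed; unadjusted, 125 member genes and 13% of all genes were under 0.05. DESeq2 on the mRNA libraries called 84 member genes higher and 148 lower, beside 12.3% and 11.2% of all genes.

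The member genes with the largest rises in HB mRNA included Gbe1, Pcca, Dhcr7 and Psmd14. Gbe1, the glycogen branching enzyme, had 19.3 and 17.4 CPM in HF and 177 and 62.6 CPM in HB. Every HB library lay above the HF libraries, and the log2 difference was 2.70 ± 0.43 (SE, edgeR adjusted p = 0.0052). Its member peak lay 39.5% along the span, with folds of 9.62 and 9.001. Pcca, a subunit of propionyl-CoA carboxylase, had 18.6 and 19.9 CPM in HF and 102 and 67.4 in HB, a log2 difference of 2.14 ± 0.30 (edgeR adjusted p = 0.0042). It held 2 members, the stronger with folds of 23.1 and 29.4 at chr14:122779119-122779465. Dhcr7 had 27.9 and 20.3 CPM in HF and 98.4 and 78.8 in HB, a log2 difference of 1.88 ± 0.30 (edgeR adjusted p = 0.0049). Its only member, at chr7:143823155-143823361, lay at the first annotated start. Of the 24 cholesterol synthesis genes, all tested, 22 were called higher in HB mRNA and 0 lower. Their median log2 difference was 2.08, and only Dhcr7 among them held a member. Over all genes tested, 11.3% were higher and 10.1% lower. Psmd14, a deubiquitinase of the proteasome lid, had 16.9 and 16.0 CPM in HF and 64.8 and 41.8 in HB, a log2 difference of 1.70 ± 0.31 (edgeR adjusted p = 0.0072). The calls of Gbe1, Pcca, Dhcr7 and Psmd14 held with any 1 mRNA library left out.

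The other genes named by size lost their call in some of these fits. Agmo, the alkylglycerol monooxygenase, had 8.13 and 7.69 CPM in HF and 55.1 and 20.4 in HB. Abhd2, Krt23, Zbed6, C330021F23Rik and Snx9 had log2 differences of 1.68 to 2.47. Agmo, Abhd2, Krt23, Zbed6, C330021F23Rik and Snx9 lost the call without HB mRNA replicate 1. Zbed6 and C330021F23Rik lost it without HB mRNA replicate 2 too, C330021F23Rik without HF mRNA replicate 1 and Snx9 without HF mRNA replicate 2. Vsig4, the Kupffer cell complement receptor, had 5.92 and 11.7 CPM in HF and 25.8 and 18.1 in HB (log2 difference 1.32 ± 0.38, edgeR adjusted p = 0.031), a call that ended when replicate 1 of either diet was left out. Mthfd1l, a mitochondrial folate enzyme, rose from 0.947 and 1.57 CPM in HF to 4.38 and 4.57 in HB (log2 difference 1.82 ± 0.48, edgeR adjusted p = 0.022). Of the fits that left out 1 mRNA library, only that without HF mRNA replicate 2 kept the call.

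The member genes with the largest falls included Ccnl1, Morc3 and 3 zinc finger genes. Ccnl1 had 198 and 143 CPM in HF and 37.6 and 36.2 in HB, with no overlap of the groups and a log2 difference of −2.20 ± 0.30 (edgeR adjusted p = 0.0040). Morc3, a chromatin ATPase, had 126 and 100.1 CPM in HF and 21.1 and 34.7 in HB, a log2 difference of −2.02 ± 0.32 (edgeR adjusted p = 0.0051). The zinc finger genes Zfp182 (24.1 and 23.5 CPM in HF, 6.47 and 5.33 in HB), Zfp276 (252 and 330.2, then 42.6 and 109) and Zfp433 (20.1 and 14.7, then 5.19 and 4.00) were lower too. These 5 genes kept their call with any 1 mRNA library left out. Zinc finger genes have close relatives, so reads could have been split between copies. Zfp433 held no HF peak, whereas Zfp182 held 4 and 1 peaks in HF replicates 1 and 2.

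Chka, choline kinase, the first step of phosphatidylcholine synthesis from choline, had 203 and 62.9 CPM in HF and 17.7 and 32.5 in HB. Its log2 difference was −2.41 ± 0.50 (edgeR adjusted p = 0.010), the largest fall among the genes named by size, with a wide gap between the HF libraries. Leaving out replicate 1 of HF mRNA (edgeR adjusted p = 0.056) or of HB mRNA (0.12) ended the call. Over all alternatives the adjusted p ran from 8.6e-11 to 0.32. D17H6S56E-5, Spag1, Fam214a and Dok3 had log2 differences of −2.30 to −1.89 and lost the call without HB mRNA replicate 1. Spag1 lost it without HF mRNA replicate 1 too.

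Of the 5 nuclear receptor genes with a member, 2 were lower in HB and none higher, beside 3 lower and 0 higher among the 25 of the list that were tested and 10.1% lower and 11.3% higher of all genes. Both calls were lost when some libraries were left out. Nr1h4 had 451 and 358 CPM in HF and 111 and 160 in HB, a log2 difference of −1.58 ± 0.32 (edgeR adjusted p = 0.0091, and 0.0502 without HB mRNA replicate 1). Esr1, the oestrogen receptor alpha, had 12.8 and 24.0 CPM in HF and 8.76 and 7.17 in HB (log2 difference −1.21 ± 0.36, edgeR adjusted p = 0.038). That call ended when either HB library or the HF library of replicate 2 was left out. Hnf4a, the hepatocyte master regulator, had 886 and 631 CPM in HF and 546 and 669 in HB, so the groups overlapped. Ppara, at 304 and 349 CPM in HF and 280.2 and 315 in HB, did not pass the test either.

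The gene with the strongest member, Eea1, had 54.2 and 55.2 CPM in HF and 32.5 and 24.2 in HB, a log2 difference of −0.95 ± 0.28 (edgeR adjusted p = 0.034). The call was lost without either HF library (0.20 and 0.16) and without HB mRNA replicate 2 (0.061). The other 9 genes with the strongest members did not pass the test. Among them Sugct had 37.1 and 39.2 CPM in HF and 53.8 and 47.4 in HB, and Mon2 83.3 and 70.0 in HF and 54.5 and 54.8 in HB. Neither pair of groups overlapped, but the log2 differences of 0.41 ± 0.27 and −0.49 ± 0.27 had edgeR adjusted p-values of 0.29 and 0.21. The genes with the most members did not pass either: Gphn had 49.2 and 49.4 CPM in HF and 50.6 and 42.3 in HB, and Dpyd 265 and 224 in HF and 430.5 and 274 in HB. Ythdf2 stood at 19.8 and 17.7 CPM in HF and 18.9 and 18.2 in HB. Among other m6A regulators, Mettl3, Mettl14, Wtap, Fto and Alkbh5 held no member.

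Of the metabolic signalling genes with a member, none of the insulin and glucose group passed. Foxo1, a transcription factor that insulin restrains, had 68.6 and 64.0 CPM in HF and 36.5 and 44.6 in HB (log2 difference −0.71 ± 0.27, edgeR adjusted p = 0.081). Ghr, the growth hormone receptor, had 231 and 292 CPM in HF and 556 and 417 in HB (0.90 ± 0.30, edgeR adjusted p = 0.056). Pcx, pyruvate carboxylase, had 452 and 330.2 CPM in HF and 672 and 648 in HB (0.76 ± 0.30, edgeR adjusted p = 0.090). Pfkfb3, the other member gene of this group, had 32.2 and 51.2 CPM in HF and 61.9 and 44.3 in HB, so the diets overlapped. Of the 29 genes of the group, all tested, 3 were higher and 2 lower. None of the 3 translation factors or the 4 inflammatory signalling genes with a member passed the test. Of all 38 translation factors 10 were higher and 2 lower, and of 33 tested inflammatory signalling genes 3 were higher and 2 lower. With 21.4% of all genes called, 0 calls among so few genes cannot be read as a trait of members.

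In ribosome-bound mRNA, the HB libraries differed by hardly more than repeated draws from 1 library. The chi-square per degree of freedom between their counts was 1.40, against 98.0 for the HF RNC pair, 34.7 for HF mRNA and 98.5 for HB mRNA. They were summed and counted as 1 sample, so the fit had 3 libraries and assumes that the lone HB sample would vary as the HF pair does. Of the 1124 member genes 198 (17.6%) had no RNC read in any library, and 911 were tested. None passed (edgeR quasi-likelihood, adjusted p under 0.05), as was so for 0 of all 10986 genes (0%). At an unadjusted p under 0.05 there were 25 member genes (2.74%), beside 350 of all genes (3.19%). DESeq2 called 4 member genes higher and 49 lower, beside 1.19% higher and 4.93% lower of all genes. The model of all mRNA and RNC libraries called 75 higher and 41 lower of 1067, beside 7.61% and 3.94% of all genes, so the split between directions changed with the fit. The median log2 difference, HB minus HF, was 0.01 in member genes and −0.01 in all genes. The RNC difference minus the mRNA difference had a median of 0.23 on the log2 scale over 910 member genes. It was 0.18 for genes with peaks of both HF libraries only, 0.09 for genes with peaks of all 4 libraries and 0.03 for all genes tested in both. For the 88 genes with no HF peak, 54 of which had both values, it was −0.30. These medians rest on 1 HB RNC sample, and their differences were not tested. Without HF RNC replicate 2 the RNC median of member genes alone was 0.18, and without HF RNC replicate 1 it was 0. With 1 mRNA library left out, their mRNA median ran from −0.22 to 0.04.

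The RNC differences of smallest unadjusted p are given as values, since none passed in the fit of RNC libraries alone. Elovl6, which elongates fatty acids, had 265 and 161 CPM in HF RNC and 3210 and 3144 in HB RNC. In mRNA it had 75.5 and 44.1 CPM in HF and 369 and 60.3 in HB. Acacb, the acetyl-CoA carboxylase of the mitochondrial surface, had 131 and 20.2 CPM in HF RNC and 764 and 751 in HB RNC. Both belong to the list of fatty acid and triglyceride synthesis. Of its 29 genes, all tested in mRNA, 15 were called higher and 1 lower, with a median log2 difference of 1.60. Only Acacb and Elovl6 in the list held a member, and neither was called in mRNA. In RNC the HB pair, counted as 1 sample, lay above both HF values in these genes. Psap, the precursor of lysosomal saposins, had 92.3 and 56.6 CPM in HF RNC and 191 and 197 in HB RNC. Its mRNA was higher too, at 217 and 208 CPM in HF and 460 and 524 in HB (edgeR adjusted p = 0.016, not called without HF mRNA replicate 1 or 2). Upf3b, a factor of nonsense-mediated decay, had 10.2 and 15.9 CPM in HF RNC and 101.45 and 92.7 in HB RNC, while its mRNA was lower in HB, at 27.1 and 26.2 CPM in HF and 13.4 and 10.4 in HB (edgeR adjusted p = 0.021, not called without HF mRNA replicate 1 or 2).

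A level of 0 in 1 diet was common in RNC: 174 of the 911 member genes tested and 2609 of all 10986 had more than 3 reads in 1 diet and none in the other. Rgs3, a regulator of G-protein signalling, had no read in either HF RNC library and 42.2 and 42.4 CPM in HB RNC, at least 177-fold higher against a floor of 3 counts over the group. Trmu, which modifies mitochondrial tRNA, had 34.8 and 50.5 CPM in HF RNC and no read in HB RNC, at least 213-fold lower. Ankrd13c and Cops4 had no read in HB RNC either, at least 187-fold and 180-fold lower. Cops4, a COP9 signalosome subunit, was higher in HB mRNA, at 12.2 and 11.1 CPM in HF and 34.6 and 20.4 in HB (edgeR adjusted p = 0.025), a call that was lost without HF mRNA replicate 1, HF mRNA replicate 2 or HB mRNA replicate 1. Ddx52, an RNA helicase, had 59.96 and 95.1 CPM in HF RNC and 1.10 and 2.14 in HB RNC. These bounds cover counting error only.

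Beside the mRNA calls, ribosome-bound levels of the same genes took several forms. Pcca had 36.6 and 33.8 CPM in HF RNC and 11.3 and 8.19 in HB RNC, the pair counted as 1 sample. Its RNC level was thus lower in HB and its mRNA higher, but the RNC difference had an edgeR unadjusted p of 0.24. Dhcr7 had 16.5 and 37.0 CPM in HF RNC and 80.9 and 93.6 in HB RNC, above both HF values as in mRNA. Gbe1 had 0 and 15.2 CPM in HF RNC and 9.11 and 9.61 in HB RNC, between the HF values. Ccnl1 had 61.8 and 80.01 CPM in HF RNC and 67.5 and 68.6 in HB RNC, also between them. Nr1h4 had 1099 and 1161 CPM in HF RNC and 719 and 745 in HB RNC. That 1 HB sample was lower, as in mRNA, with an edgeR unadjusted p of 0.17 in RNC. Zfp433 had 28.1 and 17.3 CPM in HF RNC and no read in HB RNC. The smallest adjusted p among these 6 genes was 0.9999 in the fit of RNC libraries alone.

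**Figure D5:**
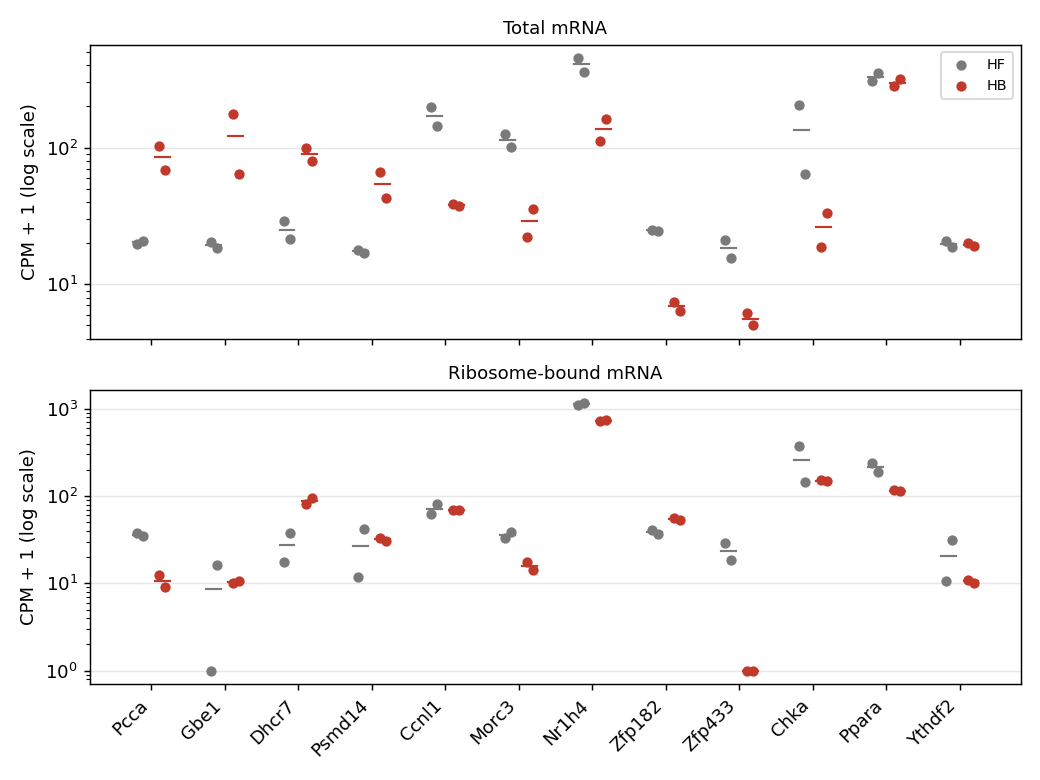
Levels of 12 member genes in total mRNA (top) and ribosome-bound mRNA (bottom), as CPM plus 1 on a log scale, with a point for each library (grey HF, red HB) and a bar at the group mean. In mRNA Pcca, Gbe1, Dhcr7 and Psmd14 lie higher in HB, Ccnl1 to Chka lie lower, and Ppara and Ythdf2 lie close together. The red points of the lower panel, the HB pair counted as 1 sample, lie close together.

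Among genes with a member over a promoter window, Bcat2 was lower in HB mRNA, at 60.4 and 55.4 CPM in HF and 18.8 and 32.3 in HB (log2 difference −1.18 ± 0.31, edgeR adjusted p = 0.024). Of the fits that left out 1 mRNA library, only that without HB mRNA replicate 2 kept the call. The RNC levels of Bcat2 were 140 and 134 CPM in HF and 120 and 115 in HB. The summit of its member also lay in the span of 0610005C13Rik. Ivd, which breaks down leucine after the step of Bcat2, had 251 and 165 CPM in HF mRNA and 211 and 228 in HB mRNA, so the groups overlapped. In RNC it had 167 and 171 CPM in HF and 78.2 and 82.5 in HB. Klb, the liver co-receptor of FGF21 and FGF15, had 9.70 and 5.10 CPM in HF mRNA and 16.6 and 9.65 in HB mRNA, which overlapped.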

How the data were processed

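Total mRNA, RNC mRNA and m6A immunoprecipitated RNA of mouse liver were analysed in 12 of 16 listed samples. Input samples of the m6A assay were not analysed here. Each deposited count gives a gene's reads over its merged splice variants, and the authors mapped reads to RefSeq RNA, per the labels. The deposited RPKM was scaled by the authors to transcript length and library size. Deposited m6A peaks were called per library; the submitters' processing notes list MACS2 2.1.0.20151222 and mm10, and the labels' protocols name Trimmomatic 0.36 and TopHat 2.0.13. Per the file headers, each peak has a pileup signal, whose scaling is not given in the sources used here, and a fold enrichment, a ratio over local background. The headers of the deposited −log10 p and q columns are unreadable, so their meaning was taken from the usual column order. Local background and depth of the m6A libraries can set which peaks pass the fold minimum, and the m6A depth is not given in the sources used here.

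Overlaps were computed on 1-based mm10 coordinates. Of 24539 genes in the count tables, 24457 were placed on GRCm38.p6 RefSeq spans, 23720 by symbol and 737 by accession. Counts were tested with edgeR 4.0.16 in R 4.3.3 (TMM, filterByExpr, quasi-likelihood F test, Benjamini-Hochberg threshold 0.05), mRNA in 4 libraries and RNC in 3 after the HB pair was summed. CPM values are TMM-scaled. DESeq2 1.42.0, other scalings, no filter, other overlap rules, a replicate block and leaving out each library were tried. On simulated data with known changes of a single size, the mRNA fit recovered most changed genes and the RNC fit recovered none. The RNC simulation used a smaller dispersion (spread between libraries) than the 1.75 estimated in the RNC fit. The 0 RNC calls therefore cannot be read as a lack of difference in RNC levels. Members, lists and tests were chosen with earlier results of these data known. Named genes are the 10 strongest members, up to 5 genes with most members, up to 8 sequences, the 10 largest mRNA calls in each direction with at least 5 CPM and no overlap of diets, the RNC genes of smallest p (as values), up to 4 per list and a fixed set of regulators; genes with a promoter window and peaks just inside and outside the rule were added. The planned motif search around every summit was replaced by one in promoter windows. Antisense and overlapping genes cannot be told apart, since strand use in counting is not given in the sources used here. Some items of the lists are not reported here.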

Additional observations from a re-analysis of the deposited data

How the results depend on the processing

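The number of member peaks, 1420, changed with the overlap rule. It was 1371 with HB replicate 2 peaks as members, 1072 when the HB replicate 2 peak had to cover at least 50% of the HB replicate 1 peak, 1281 with no HF peak within 200 bp, and 559 with a fold of at least 10 in all lists. A −log10 q of at least 5 could remove no peak of the deposited lists, so that setting tested nothing. Leaving out 1 m6A library gave 1940 to 19487 peaks, the upper end without HB replicate 1. GGACT in place of GGAC was found in 25% of the 16 promoter windows. The member genes called in mRNA numbered 80 higher and 135 lower. With total counts in place of TMM, an alternative chosen after seeing the data, they were 35 and 235, beside 6.11% and 18.1% of all genes. In the model of all mRNA and RNC libraries they were 0 and 0. Leaving out 1 mRNA library gave 16 to 122 higher and 42 to 137 lower, with medians of −0.22 to 0.04. Without a filter on low counts they were 120 and 170, and with DESeq2 84 and 148. RNC calls, 0 and 0, became 4 and 49 with DESeq2 and 75 and 41 in the model of all libraries, and were 0 without either HB RNC library. Leaving out an HF RNC library leaves no residual degrees of freedom, so only medians of 0 and 0.18 were computed. The cause of these changes was not tested, beyond the smaller number of libraries. The replicate block gave 86 higher and 146 lower in mRNA, and 0 and 0 in RNC with the HB pair kept apart (90 at an unadjusted p under 0.05); same-numbered samples share only a number (correlation of deviations −0.11 in mRNA and 0.0062 in RNC). For 76 single genes, 740 of 870 alternative values kept direction and side of the threshold, 72 lost the call, 43 gained it and 15 changed sign, 0 of these with a call on either side. With total counts the mRNA log2 difference turned to −0.15 in Acmsd, −0.084 in Ahcyl2, −0.27 in Ankrd13c, −0.21 in Ivd and −0.10 in Rptor. With 1 mRNA library left out it ran from −0.67 to 0.62 in Acmsd, −0.12 to 0.14 in Ankrd13c, −0.22 to 0.0398 in Gphn, −0.23 to 0.39 in Ivd, −0.145 to 1.14 in Rgs3, −0.17 to 1.13 in Tm4sf1 and −0.13 to 0.0404 in Ythdf2. The search around each summit with a wider window and the restriction to exons were not run. Having 2 libraries a diet and an unknown m6A depth limit every statement on peak presence.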
